A study of Mus musculus with 2 samples.

Results

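The interferon regulatory factors (IRFs) are transcription factors that share a DNA-binding domain and bind repeats of GAAA, as in the interferon-stimulated response element (ISRE). IRF3, IRF7 and IRF5 switch on interferon and cytokine genes once sensors of foreign nucleic acid have signalled, IRF9 is part of the complex that answers interferon at its target genes, and IRF1 and IRF2 act on many of the same targets, IRF2 mostly as the antagonist of IRF1. IRF8 and IRF4 pair with PU.1 and direct myeloid, dendritic and lymphoid fates, and loss of IRF2 is known to drive hematopoietic stem cells (HSCs) out of quiescence under chronic interferon signalling. Accessibility of the 8 genes Irf1, Irf2, Irf3, Irf4, Irf5, Irf7, Irf8 and Irf9 was measured here, 8 of the 21911 protein-coding genes of the annotation, chosen by name as members of the family. The question was how their promoters, gene bodies and surrounding elements differ between young and aged HSCs.

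Single-cell ATAC-seq, in which a transposase cuts open chromatin and each fragment keeps the barcode of its nucleus, had been carried out on HSCs sorted from bone marrow of C57BL/6 mice. The young library came from mice 10 weeks old and the aged library from mice 20 months old, both sorted as Sca-1+, c-kit+ and CD150+ cells that were Lin-, CD34-, CD48-, Flt3- and IL-7-, and the labels name no allele or treatment besides age. The animals were female per the study's methods, the number of mice behind each library is not given in the sources used here, and there was 1 library per age. No test between ages was therefore possible. Every interval below, except those of medians across genes, is a 95% interval that covers counting error only. A level is the number of fragments with an end in a region per 1000000 fragments in peaks (FPM), and a ratio is log2(aged / young) of levels.

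The 4887 young and 3404 aged cells used held a median of 9890 and 11020 fragments, and 34680402 and 26168785 fragments in peaks in all. The libraries differed in fragment length, with 59.8% and 55.0% of fragments shorter than the stretch wrapped by a nucleosome (short fragments), and 26 cell barcodes occurred in both. Of 8 HSC markers the summed promoter level was 152 FPM in young and 149.8 FPM in aged HSCs, from 47.9 FPM or more at Kit down to Mecom at 0.519 and 0.535 FPM. The olfactory receptor promoters, taken as background, had a 95th percentile of 0.519 and 0.552 FPM, so that Mecom alone of the 8 was not above it in either library. The 5 T cell markers summed to 4.82 and 2.22 FPM and the 5 dendritic markers to 55.2 and 46 FPM, where Flt3, the receptor absent from the sorted surface, made up 33.8 and 25.4 FPM. Cd8a, Xcr1 and Ms4a1, a T, a dendritic and a B cell marker, lay below that percentile in both libraries. The monocyte and granulocyte markers (13.8 and 12.9 FPM), the B cell markers (21.3 and 22.5 FPM) and the erythroid markers (46.7 and 44.0 FPM) were closer between the ages, and the part of any of these in the ratios below was not tested.

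The promoter sequences of 3 members are shown because they hold the interferon-related motifs found in the promoter windows searched. All 8 genes matched RefSeq promoter windows of build GRCm38.p6, 11 windows in all, each running from 250 bases before to 50 bases after a RefSeq start. Capitals mark the ISRE (letters GAAANNGAAA, searched on both strands) and the STAT element called GAS (letters TTCNNNGAA, the same on either strand).

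Irf2 promoter, chr8:46739495-46739794, plus strand: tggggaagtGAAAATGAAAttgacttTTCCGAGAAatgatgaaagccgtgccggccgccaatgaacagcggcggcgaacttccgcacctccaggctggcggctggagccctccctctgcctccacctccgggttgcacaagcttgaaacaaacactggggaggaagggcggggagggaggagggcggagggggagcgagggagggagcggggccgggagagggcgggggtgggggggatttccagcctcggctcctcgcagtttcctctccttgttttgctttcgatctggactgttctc

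Irf8 promoter, chr8:120736108-120736407, plus strand: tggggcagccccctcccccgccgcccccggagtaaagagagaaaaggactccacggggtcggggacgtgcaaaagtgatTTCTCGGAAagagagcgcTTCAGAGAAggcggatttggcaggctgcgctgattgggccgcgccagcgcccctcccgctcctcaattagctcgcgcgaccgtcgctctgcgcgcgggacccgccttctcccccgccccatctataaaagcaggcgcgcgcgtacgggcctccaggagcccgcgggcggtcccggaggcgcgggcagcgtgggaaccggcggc

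Irf1 promoter, chr11:53769764-53770063, plus strand: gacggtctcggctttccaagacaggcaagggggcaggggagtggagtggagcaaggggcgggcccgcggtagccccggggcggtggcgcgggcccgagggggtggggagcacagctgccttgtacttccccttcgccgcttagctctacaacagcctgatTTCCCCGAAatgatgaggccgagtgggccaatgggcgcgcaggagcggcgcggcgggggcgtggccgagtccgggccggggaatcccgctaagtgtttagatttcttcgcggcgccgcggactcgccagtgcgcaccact

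In the promoter windows searched, Irf2 was the 1 gene of the 8 with an ISRE, at -241 to -232 counted from 0 at the RefSeq start. This ISRE overlapped a match to the PU.1-IRF composite (letters GGAANTGAAA) at -247 to -238 and was followed by a GAS at -224 to -216. Irf8 held 2 GAS matches, at -171 to -163 and at -153 to -145. Irf1 held 1 GAS, at -90 to -82. An ISRE occurred in 3.44% of all 32851 RefSeq promoter windows, the composite in 0.731% and a GAS in 8.30%. The GATA motif (letters AGATAA) was found at Irf7 and Irf9, against 11.2% of all windows, each on both strands. No window of the 8 genes held the letters searched for AP-1 (TGANTCA, 7.81% of all windows), PU.1 alone (GAGGAAGT, 3.20%), RUNX (TGTGGT, 16.8%) or ETS (CCGGAAGT, 3.89%). These are matches of letters, not measured binding.

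The promoters of all 8 genes, taken as the 5' end of the gene with 1 kb on either side, were open in both libraries, at 10.4 to 55.4 FPM in young HSCs. The median over 1092 olfactory receptor promoters was 0.115 FPM in either library. No promoter of the 8 had a ratio past 0.32 on the log2 scale in either direction, a size that 11.0% of the 15003 protein-coding promoters with at least 100 fragments exceeded. The median ratio of the 8 was -0.082, beside -0.054 over all promoters.

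Irf2 and Irf3 were the most open promoters. At Irf2 (chr8:46739732-46847458, plus strand), the antagonist of IRF1, the promoter held 1921 fragments in young and 1393 in aged HSCs, or 55.4 and 53.2 FPM, a ratio of -0.057 (-0.16 to 0.043). Irf3 (chr7:44997648-45002848, plus strand), the constitutive first responder to nucleic acid sensing, held 1875 and 1408 fragments, or 54.1 and 53.8 FPM, a ratio of -0.0067 (-0.11 to 0.094). Both ratios included 0, and both windows are shared with a gene on the opposite strand, so their fragments cannot be assigned to 1 gene. At Irf2 the noncoding Gm16675 starts at -217 bp, and at Irf3 the nearest start of Bcl2l12 lies at -69 bp.

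Irf1 (chr11:53770014-53778374, plus strand), the activator induced by interferon gamma, held 1547 and 1083 fragments, or 44.6 and 41.4 FPM, a ratio of -0.11 (-0.22 to 0.0048). Irf9 (chr14:55603571-55610030, plus strand), the DNA-binding part of the complex that answers type I interferon, held 1262 and 863 fragments, or 36.4 and 33.0 FPM, a ratio of -0.14 (-0.27 to -0.016). Irf9 was the 1 member whose promoter interval lay wholly below 0, and none lay wholly above. Among all promoters tested 24.2% had an interval wholly below 0 and 12.3% one wholly above, so 1 of 8 and 0 of 8 were no larger shares than those of all genes. Scaled to fragments in promoters, no member had an interval wholly below 0 and 1, Irf5, had one wholly above. Scaled to all nuclear fragments, 4 had one wholly below. The median of all promoters was -0.0037 and -0.087 at these scalings, and the shares of all promoters with such intervals there were not computed.

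Irf7, Irf8 and Irf4 formed a lower group of nearly equal level. Irf7 (chr7:141262706-141266481, minus strand), the amplifier of type I interferon, held 751 and 510 fragments, or 21.7 and 19.5 FPM, a ratio of -0.15 (-0.32 to 0.012). Irf8 (chr8:120736358-120756694, plus strand), the myeloid and dendritic member, held 736 and 499 fragments, or 21.2 and 19.1 FPM, a ratio of -0.15 (-0.32 to 0.012). Irf4 (chr13:30749226-30766976, plus strand), known from plasma cells and activated T cells, held 709 and 527 fragments, or 20.4 and 20.1 FPM, a ratio of -0.021 (-0.19 to 0.14). The aged value was the lower one at all 3, and no interval excluded 0.

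Irf5 (chr6:29526625-29541871, plus strand), an activator of inflammatory cytokine genes, was at the 5' end of its gene model the least open and the 1 promoter with more signal in aged HSCs. Its window held 362 and 311 fragments, or 10.4 and 11.9 FPM, a ratio of 0.19 (-0.036 to 0.41). In both libraries the order at the 5' ends was the pair of Irf2 and Irf3, then Irf1, Irf9, the group of Irf7, Irf8 and Irf4, and Irf5. Within the pair and within the group of 3, neighbours did not differ beyond counting error in either library, while every other step did.

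**Figure D1:**
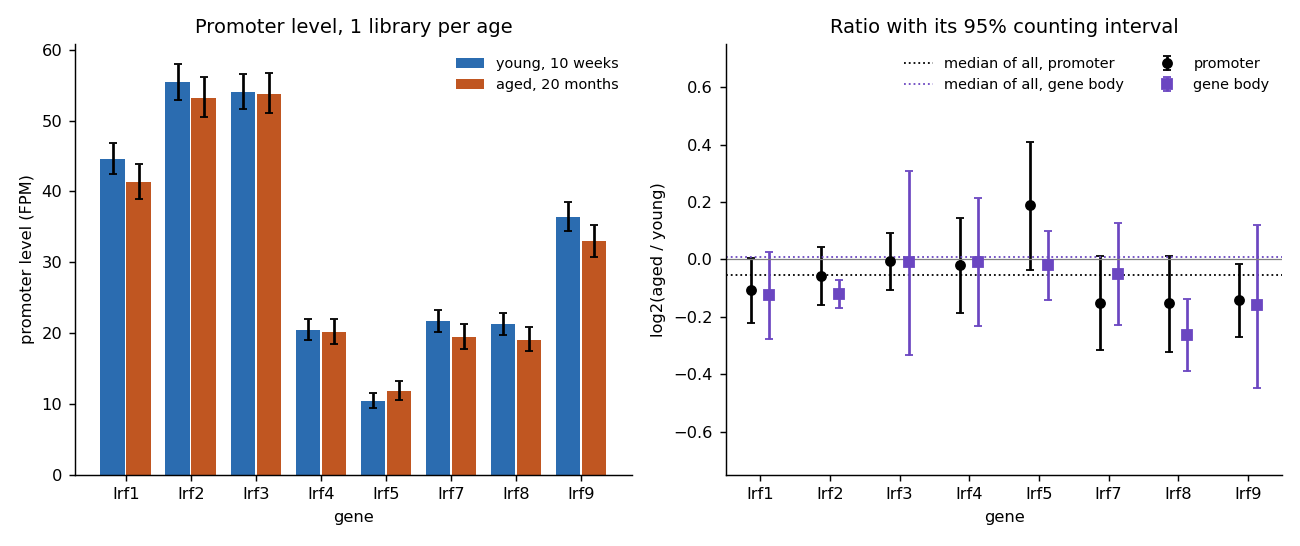
Left, promoter level in FPM of the 8 Irf genes in the young (blue) and aged (orange) library, 1 library each, with exact Poisson 95% intervals. Right, log2(aged / young) of promoters (circles) and gene bodies (squares) with 95% counting intervals, and the medians of all genes as dotted lines; Irf8 has the lowest gene body ratio, -0.26, and Irf5 the highest promoter ratio, 0.19.

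Of the 8 promoters, 7 lay below 0 as scaled here, where 65.2% of all promoters did. When the libraries were scaled to fragments in promoters 5 did, with Irf3, Irf4 and Irf5 above 0. At that scaling the median was -0.032 over the 8, beside -0.0037 over all promoters.

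Gene bodies were taken with the promoter window at the 5' end of the gene model left out. As scaled here, they had a lower value in aged HSCs at each of the 8 members. Of all gene bodies, 47.7% lay below 0. The median of the 8 ratios was -0.085, beside 0.0094 over all gene bodies, and none passed 0.32 on the log2 scale in either direction, as 16.3% of 16530 gene bodies did. With scaling to promoter fragments, 4 of the 8 were below 0 and 4 (Irf3, Irf4, Irf5 and Irf7) above. There the median was -0.034 over the 8, beside 0.060 over all gene bodies. Intervals lay wholly below 0 at Irf8 and Irf2, 2 of 8 against 15.9% of all, and wholly above 0 at none, against 22.5% of all.

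Irf8 had the lowest ratio of the family. Its gene body held 1368 fragments in young and 860 in aged HSCs, or 2.04 and 1.70 FPM per kb, a ratio of -0.26 (-0.39 to -0.14), and 7.74% of all gene bodies had a lower ratio. The gene body of Irf2 held 8099 and 5623 fragments, or 2.19 and 2.01 FPM per kb, a ratio of -0.12 (-0.17 to -0.071). These were the members with the clearest count difference between the libraries, and Irf2 is the longest gene of the set at 107.7 kb.

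The other 6 gene bodies had intervals that included 0, with ratios from -0.16 at Irf9 to -0.0075 at Irf4. Per kb, Irf7 was the most open gene body, at 6.36 and 6.14 FPM per kb over 2.77 kb, and Irf4 the least, at 0.675 and 0.671 FPM per kb over 16.8 kb. Irf1 had 3.41 and 3.13, Irf5 2.64 and 2.60, Irf9 1.36 and 1.22, and Irf3 1.31 and 1.3 FPM per kb. The order of gene bodies thus differed from that of promoters, in which Irf2 and Irf3 led. The bodies still held annotated starts further inside the genes. Among these were starts at 1008, 1189 and 1350 bp in Irf7 and at 2657 bp in Irf5. The order is therefore not one of sequence free of promoters.

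Profiles of 100 bp around the gene starts showed where the signal of each window came from. The summit stood at -50 bp in both libraries at Irf1, Irf3, Irf4 and Irf8, at -150 bp at Irf2 and at 450 bp downstream of the annotated gene start at Irf9. At Irf9 the summit fell near a second annotated start, at chr14:55603985. Summit positions were the same in young and aged HSCs at all 8 genes.

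**Figure D2:**
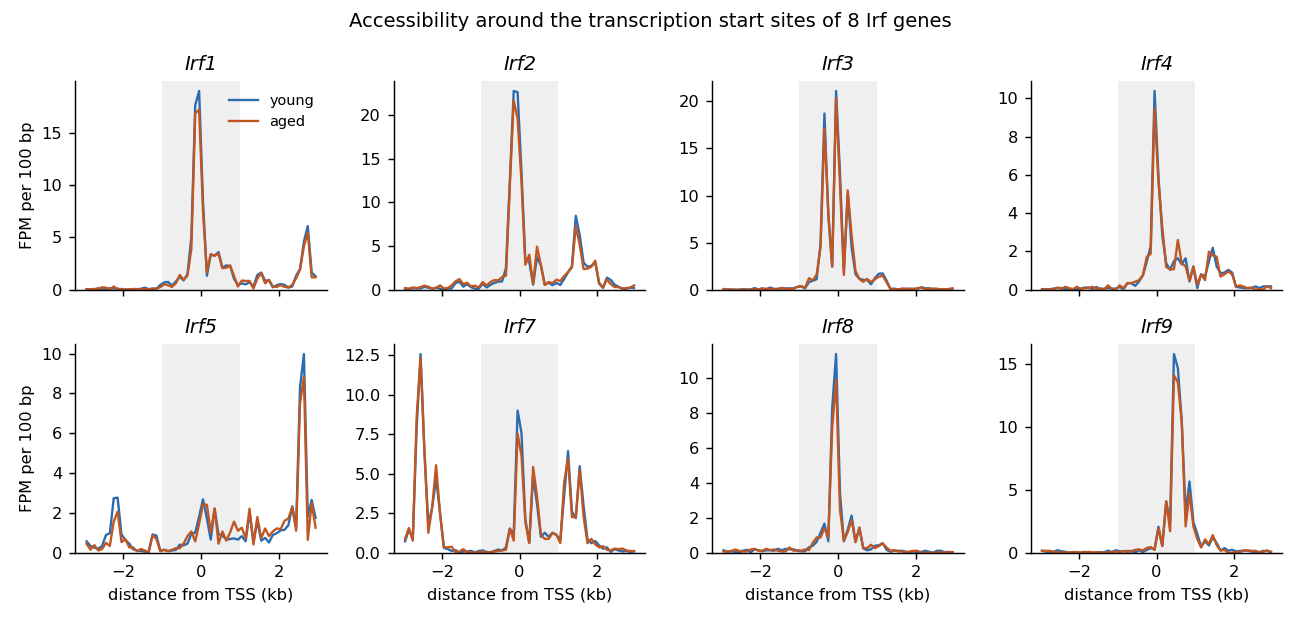
Accessibility in FPM per 100 bp within 3 kb of the gene start of the 8 Irf genes in the young (blue) and aged (orange) library; the shaded band is the promoter window of 1 kb on either side. The young and aged lines share their summits, and the summits of Irf5 (2650 bp) and Irf7 (-2550 bp) lie outside the window.

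Irf5 was most open away from the 5' end of its gene model, and the summit of Irf7 lay upstream of the gene. At Irf5 the summit within 3 kb lay at 2650 bp inside the gene, at 9.98 FPM in young and 8.83 FPM in aged HSCs. The annotated start with the most fragments, at chr6:29529282, held 785 and 563 fragments, or 22.6 and 21.5 FPM, a ratio of -0.073 (-0.23 to 0.085). The higher aged value at the 5' end of Irf5 was thus not seen at its most open start. At Irf7 the start with the most fragments, at chr7:141265707, held 1229 and 849 fragments, or 35.4 and 32.4 FPM, a ratio of -0.13 (-0.26 to -6.3e-06). The window of this start also covers the 5' end of the Irf7 gene model. There the bins at -50 and 50 bp held 312 and 197, and 263 and 161 fragments. Irf2, at its start with the most fragments, had 66.2 and 62.0 FPM, a ratio of -0.094 (-0.19 to -0.0019). Irf9, at its start with the most fragments, had a ratio of -0.15 (-0.27 to -0.026). Irf7, Irf2 and Irf9 were the members with an interval wholly below 0 at such starts. These starts were picked as the most open of 11, 10 and 7 annotated starts. At every other annotated start of Irf7 and of Irf2 the interval included 0. The share of all genes with an interval below 0 there was not computed. In young HSCs Irf5 at its start with the most fragments (22.6 FPM) was above Irf8 (21.2 FPM) and Irf4 (20.4 FPM) at theirs, and Irf7 (35.4 FPM) was near Irf9 (38.4 FPM), so the order of levels given above holds for the 5' end of the gene model alone. An element at -2.4 kb, in intergenic sequence upstream of Irf7, held 837 and 642 fragments, a ratio of 0.024 (-0.13 to 0.17).

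The share of short, nucleosome-free fragments also separated the promoters. At Irf2 79.5% (77.7 to 81.3) of the fragments in young and 72.4% (70.0 to 74.8) in aged HSCs were short, and at Irf1 71.1% and 70.6%. The shares were lowest at Irf5, Irf3 and Irf7, with 53.6%, 54.2% and 55.1% in young and 50.2%, 52.9% and 53.5% in aged HSCs. Irf8, Irf9 and Irf4 lay between, at 69.7%, 65.1% and 61.2% in young and 65.7%, 61.9% and 57.7% in aged HSCs. The aged share was lower at each of the 8, as it was over all fragments, and the median over all promoters was 64.2% and 60.2%. Whether the length difference between the libraries accounts for the lower shares at these genes was not tested.

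Per cell, 26.9% of young and 26.1% of aged HSCs had at least 1 fragment at the Irf1 promoter. The shares were 31.8% and 32.4% at Irf2, 31.4% and 32.8% at Irf3, 22.2% and 21.6% at Irf9, 13.9% and 13.7% at Irf7, 13.6% and 13.6% at Irf8, 12.9% and 13.7% at Irf4, and 6.88% and 8.28% at Irf5. The aged cells held more fragments each, so the shares were also taken after thinning. After thinning each cell to 4000 fragments, which left out 51 young and 53 aged cells, the shares were 11.7% and 10.2% at Irf1, 14.4% and 13.4% at Irf2, 14.2% and 13.5% at Irf3, and 9.56% and 8.46% at Irf9. Thinned shares were 5.76% and 5.18% at Irf7, 5.71% and 5.09% at Irf8, 5.49% and 5.21% at Irf4, and 2.84% and 3.13% at Irf5. The median over 219 olfactory receptor promoters was 0.0277% and 0.0368%, so each member was detected far above background at either age. After thinning the aged share was the lower one at 7 genes and the higher one at Irf5. Thinned shares carry no interval, and the share of all promoters that were lower after thinning was not computed. In level, 65.2% of all promoters had a ratio below 0. Thinning matched all fragments, of which 69.3% in young and 67.7% in aged cells lay in peaks, so that depth in peaks was not equal.

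Elements in and within 100 kb of the genes were read in peaks called on these cells. Of 317 such peaks in the 8 loci, 213 had at least 100 fragments. Their median ratio was -0.091, beside 0.0023 over all 97327 peaks tested. Past 1.5-fold, 3 were higher in aged HSCs (1.41%, against 9.62% of all peaks) and 7 were lower (3.29%, against 4.01% of all peaks). Scaled to fragments in promoters, 5 were higher and 4 lower, and the shares of all peaks at that scaling were not computed. Intervals lay wholly below 0 at 44 of the 213 peaks, against 14.9% of all peaks, and wholly above 0 at 17, against 18.7% of all.

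**Figure D3:**
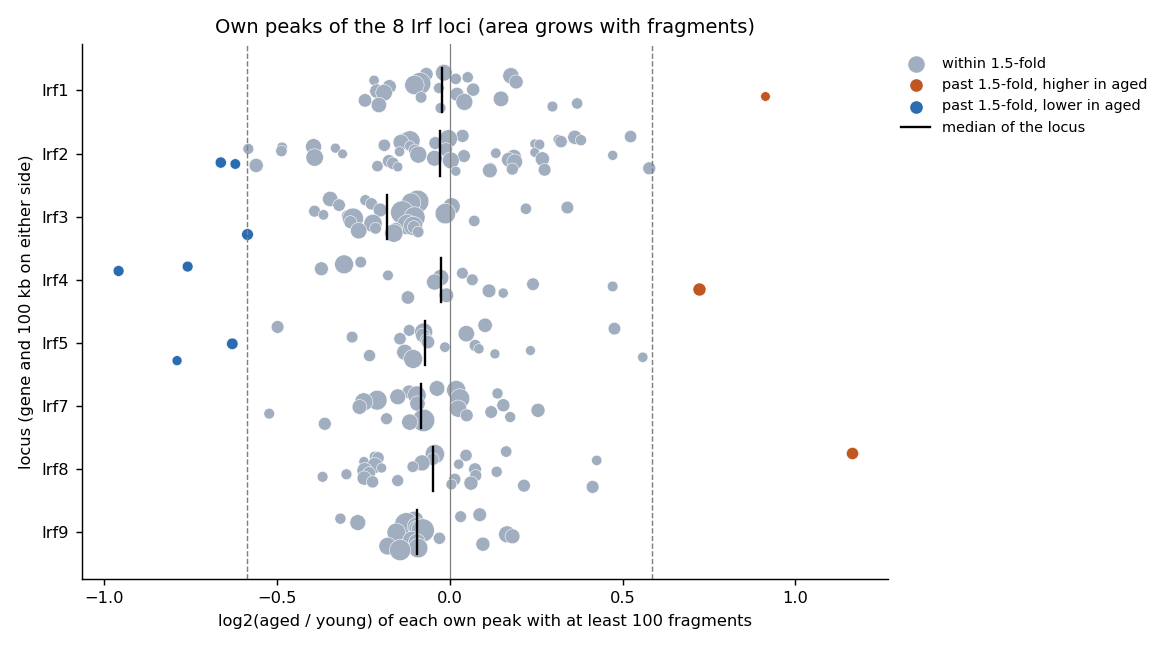
Log2(aged / young) of the 213 peaks with at least 100 fragments, 1 row per locus (the gene with 100 kb on either side), with larger points for more fragments, the locus medians as black bars and 1.5-fold as dashed lines. Peaks past 1.5-fold are orange where higher in aged HSCs (3 peaks) and blue where lower (7 peaks).

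The highest ratio of the 213 peaks was found far upstream of Irf8. The peak at -91.5 kb from the Irf8 start held 121 fragments in young and 205 in aged HSCs, or 3.49 and 7.83 FPM, a ratio of 1.16 (0.84 to 1.5). It lies at the 5' end of the antisense RNA gene Gm26537 and inside Gm20388, a long gene model that spans the whole locus. Both 500-bp bins across it had ratios past 2-fold, with 113 and 194 fragments in the first and 30 and 50 in the second. No other peak of the 29 tested in this locus passed 1.5-fold in either direction.

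The elements in the next sentences were picked after their values were seen. Within the Irf8 gene the most open element outside the promoter lay at 15.9 kb, in a noncoding exon and over an annotated transcript start of Irf8 at chr8:120752209. It held 604 fragments in young and 384 in aged HSCs, or 17.4 and 14.7 FPM, a ratio of -0.25 (-0.44 to -0.060), and it is part of the gene body counted above. The peak over the start, which covers both GAS matches shown above, held 621 and 403 fragments, a ratio of -0.22 (-0.40 to -0.034). A peak at 60.1 kb held 397 and 252 fragments, a ratio of -0.25 (-0.48 to -0.018). These were the 3 of 29 peaks with an interval wholly below 0, against 2 wholly above, at -91.5 and at 95.9 kb (206 and 207 fragments, a ratio of 0.41), neither a larger share than that of all peaks.

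The central 300 bases of the upstream element and of the element inside the gene are shown because they carry the higher and the lower value described for this locus. Capitals mark RUNX letters (TGTGGT or its reverse complement) in the first, and ISRE and GATA letters in the second.

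Irf8 -91.5 kb, chr8:120644672-120644971, plus strand: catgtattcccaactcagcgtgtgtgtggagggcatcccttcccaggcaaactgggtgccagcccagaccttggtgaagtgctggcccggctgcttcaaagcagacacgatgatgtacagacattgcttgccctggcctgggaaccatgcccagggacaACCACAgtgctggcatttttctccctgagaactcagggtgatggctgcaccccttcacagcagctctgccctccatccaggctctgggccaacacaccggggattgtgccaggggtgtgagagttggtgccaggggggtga

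Irf8 +15.9 kb, chr8:120752137-120752436, plus strand: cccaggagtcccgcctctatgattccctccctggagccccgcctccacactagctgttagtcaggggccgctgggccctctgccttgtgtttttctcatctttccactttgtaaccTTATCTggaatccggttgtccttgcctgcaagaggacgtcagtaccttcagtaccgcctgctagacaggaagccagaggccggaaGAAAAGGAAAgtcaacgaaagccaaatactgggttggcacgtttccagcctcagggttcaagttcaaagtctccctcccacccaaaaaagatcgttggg

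RUNX letters were present in 27.2% of the 213 peaks of the 8 loci and in 26.6% of all peaks tested, and ISRE letters in 5.16% and 5.60%. Over the 8 motifs searched, the peaks of the loci that held a motif had median ratios from -0.30 (PU.1 letters, 12 peaks) to 0.041 (the ISRE, 11 peaks, and AP-1, 21 peaks, alike). The peaks without it had medians from -0.096 to -0.080.

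The known Irf8 enhancers, which are named by their distance from the start, were counted in windows of 1.5 kb on either side. The -50 kb window, an enhancer of myeloid cells, held 269 fragments in young and 194 in aged HSCs, or 7.76 and 7.41 FPM, a ratio of -0.063 (-0.34 to 0.21). The window at 32 kb, known from dendritic cells, held 271 and 212 fragments, or 7.81 and 8.10 FPM, a ratio of 0.054 (-0.21 to 0.32). The window at 56 kb held 168 and 106 fragments, or 4.84 and 4.05 FPM, a ratio of -0.25 (-0.62 to 0.10). These 3 windows were open at both ages, each with at least 1 peak, and no interval excluded 0.

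At 41 kb, the enhancer known from dendritic progenitors, 18 and 22 fragments were counted, or 0.519 and 0.841 FPM, with no peak in the window. Per kb these were 0.173 and 0.28 FPM, beside 2.58 and 2.47 FPM per kb in the -50 kb window, and the ratio of 0.68 (-0.27 to 1.68) rested on 40 fragments. Over the 4 windows together, 726 and 534 fragments gave a ratio of -0.036 (-0.20 to 0.13). With short fragments alone, this ratio was -0.20.

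**Figure D4:**
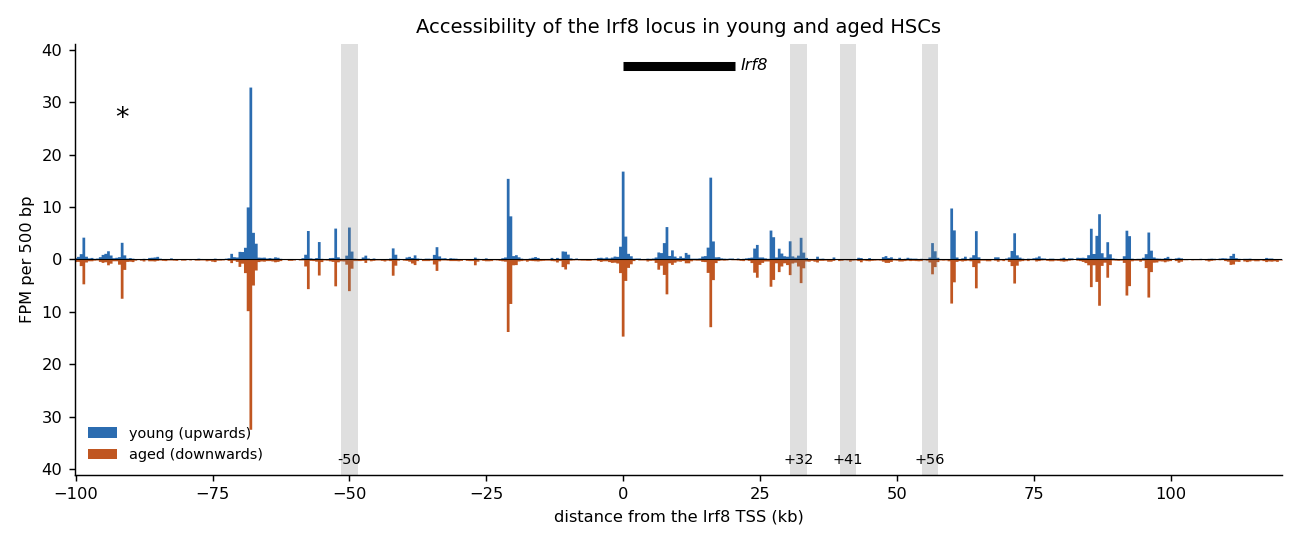
FPM per 500 bp against distance from the Irf8 start in kb, young HSCs upwards and aged HSCs downwards; the black bar is the gene, grey bands are the 4 enhancer windows, and the star marks the peak past 1.5-fold. The starred element at -91.5 kb is taller in the aged library, while the 41 kb window is nearly empty in both.

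The Irf4 locus held differences on either side of the gene. At 64.3 kb, in intergenic sequence, 196 fragments in young and 244 in aged HSCs gave 5.65 and 9.32 FPM, a ratio of 0.72 (0.45 to 1.0). Upstream, in introns of the phosphatase gene Dusp22, the peak at -51.2 kb held 138 and 53 fragments, or 3.98 and 2.03 FPM, a ratio of -0.96 (-1.46 to -0.51). The peak at -75.1 kb held 129 and 57 fragments, or 3.72 and 2.18 FPM, a ratio of -0.76 (-1.25 to -0.31). The Irf4 promoter peak, which lies between the upstream and downstream elements, held 671 and 497 fragments, a ratio of -0.026 (-0.20 to 0.14).

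The 3 elements of the Irf4 locus past 1.5-fold are shown as their central 300 bases. Capitals mark RUNX letters in the first, GAS and RUNX letters in the second, and PU.1 letters in the third.

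Irf4 +64.3 kb, chr13:30813372-30813671, plus strand: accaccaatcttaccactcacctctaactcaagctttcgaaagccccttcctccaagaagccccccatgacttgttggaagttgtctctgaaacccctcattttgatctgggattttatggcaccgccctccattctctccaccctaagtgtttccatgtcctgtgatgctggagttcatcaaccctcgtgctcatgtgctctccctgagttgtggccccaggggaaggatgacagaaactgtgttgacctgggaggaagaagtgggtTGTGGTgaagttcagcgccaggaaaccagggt

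Irf4 -51.2 kb, chr13:30697917-30698216, plus strand: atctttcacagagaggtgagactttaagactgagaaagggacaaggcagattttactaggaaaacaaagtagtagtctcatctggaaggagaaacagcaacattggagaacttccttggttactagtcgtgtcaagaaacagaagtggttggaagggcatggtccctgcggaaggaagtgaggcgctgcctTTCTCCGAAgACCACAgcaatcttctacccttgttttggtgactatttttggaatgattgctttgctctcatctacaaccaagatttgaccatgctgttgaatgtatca

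Irf4 -75.1 kb, chr13:30674007-30674306, plus strand: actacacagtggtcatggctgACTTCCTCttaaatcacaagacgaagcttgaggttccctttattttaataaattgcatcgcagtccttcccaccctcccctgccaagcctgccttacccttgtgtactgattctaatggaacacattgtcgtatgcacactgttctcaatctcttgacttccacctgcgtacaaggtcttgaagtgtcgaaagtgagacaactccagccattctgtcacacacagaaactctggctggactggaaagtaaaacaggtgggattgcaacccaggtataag

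**Figure D5:**
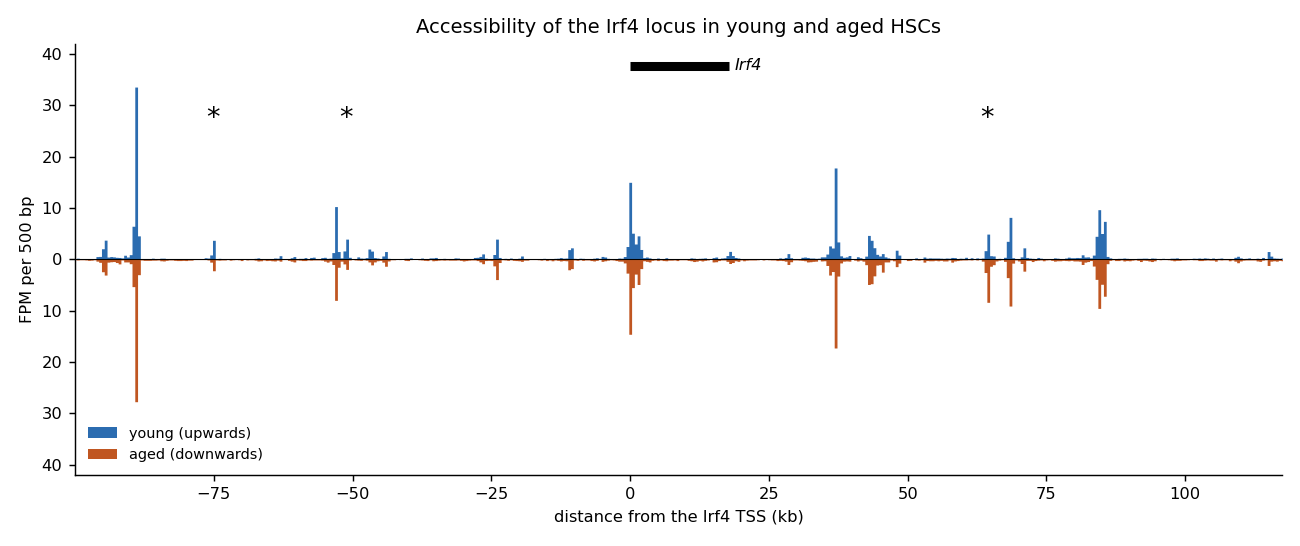
FPM per 500 bp against distance from the Irf4 start in kb, young HSCs upwards and aged HSCs downwards; the black bar is the gene and stars mark the 3 peaks past 1.5-fold. The stars at -75.1 and -51.2 kb mark elements that are shorter in the aged library, and the star at 64.3 kb one that is taller.

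Irf5 had an element close to its start among those lower in aged HSCs. The peak at -2.2 kb held 165 and 80 fragments, or 4.76 and 3.06 FPM, a ratio of -0.63 (-1.04 to -0.24), and held 2 GAS matches, in capitals below. The other peak past 1.5-fold in that locus, at 97.5 kb, held 86 and 37 fragments, a ratio of -0.79 (-1.41 to -0.24).

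Irf5 -2.2 kb, chr6:29524267-29524566, plus strand: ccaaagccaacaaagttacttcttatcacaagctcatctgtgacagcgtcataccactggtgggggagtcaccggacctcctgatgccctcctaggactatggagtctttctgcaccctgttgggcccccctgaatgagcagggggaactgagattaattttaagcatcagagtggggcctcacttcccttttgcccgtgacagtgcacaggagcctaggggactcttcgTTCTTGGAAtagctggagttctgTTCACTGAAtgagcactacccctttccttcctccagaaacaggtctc

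At the remaining loci the peaks past 1.5-fold lay far from the gene. In the Irf2 locus the peaks at 150.7 kb (150 and 71 fragments, a ratio of -0.66) and at 168.7 kb (109 and 53 fragments, a ratio of -0.62) were beyond the gene's end, and the peaks in the gene itself stayed within 1.5-fold. In the Irf3 locus the peak at 100 kb, in an intron of Fcgrt, held 184 and 92 fragments, a ratio of -0.59. In the Irf1 locus the peak at 56 kb held 42 and 60 fragments, a ratio of 0.91 (0.33 to 1.53). No peak passed 1.5-fold in the Irf7 locus (22 tested) or the Irf9 locus (19 tested).

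Bins of 500 bp in the flanks were read without peak calls. Of 3184 such bins, 650 had at least 40 fragments. Past 2-fold, 13 were higher in aged HSCs (2.0%, against 4.89% of all bins of the genome) and 10 were lower (1.54%, against 1.42%). Scaled to all nuclear fragments, 9 were higher and 11 lower, and the shares of all bins at that scaling were not computed.

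The lower bins with the most fragments lay near Irf4, Irf3 and Irf9. The bin at -47.0 kb from Irf4, in Dusp22, held 70 fragments in young and 13 in aged HSCs, a ratio of -1.94 (-3.0 to -1.16), and the one at -51.0 kb held 137 and 51, a ratio of -1.0. A bin at -47.4 kb from Irf3, in an intron of Tsks, held 93 and 24, a ratio of -1.5, and one at -26.8 kb from Irf9, near the start of Gm15932, held 96 and 27, a ratio of -1.39. All 4 were picked for being past 2-fold lower in aged HSCs, so intervals that excluded 0 add no separate support.

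In the Irf7 flank, introns of Deaf1 held bins in either direction. The bin at -40.8 kb had 26 and 60 fragments, a ratio of 1.58 (0.93 to 2.34), while those at -36.8 and -36.3 kb had 57 and 19 and 40 and 12 fragments, ratios of -1.13 and -1.25. Bins at -78.8 kb in Eps8l2 (24 and 42 fragments) and at 92.7 kb near the start of Rnh1 (21 and 36 fragments) were higher. In the Irf1 flank, bins in Gm12216 at 88.2, 72.2 and 80.7 kb held 60 and 92, 49 and 76, and 16 and 25 fragments, all higher, while those at 73.7 kb (34 and 12) and -36.3 kb (31 and 10) were lower.

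The other bins past 2-fold lay singly. Higher in aged HSCs were those at 128.5 kb from Irf2 (30 and 56 fragments), 45.5 kb from Irf4 (39 and 65), -42.4 kb from Irf5 (17 and 28) and -27.1 kb from Irf8 (15 and 27). Lower were those at 75.6 kb from Irf3 (36 and 11) and -94.6 kb from Irf8 (40 and 12). A bin at 24.9 kb from Irf8 (16 and 25) was also past 2-fold.

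Around the family, 50 of 54 genes of the interferon pathway had at least 100 promoter fragments, and their median ratio was -0.054, which equals that of all promoters at this rounding. Among them 3 were past 0.32 upwards and 1 downwards, against 8.37% and 2.59% of all promoters. Among the 16 receptor and JAK-STAT genes tested, the highest were Ifnlr1, the interferon lambda receptor (10.2 and 14.5 FPM, a ratio of 0.51), and Socs3, a feedback inhibitor of JAK signalling (44.3 and 60.2 FPM, a ratio of 0.44). The lowest were Tyk2, a receptor kinase (43.5 and 36.4 FPM, a ratio of -0.26), and Ifngr2, a chain of the interferon gamma receptor (27.7 and 23.7 FPM, a ratio of -0.23).

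Sensors, adaptors and kinases act upstream of IRF3, IRF5 and IRF7, and 21 of 23 were tested. Tlr9, the receptor for unmethylated DNA, had 228 and 79 fragments, or 6.57 and 3.02 FPM, a ratio of -1.11 (-1.51 to -0.75), the lowest of the pathway. Zbp1, a sensor of Z-form nucleic acid, had 18.6 and 24.2 FPM, a ratio of 0.38 (0.22 to 0.54). Traf3, an adaptor, followed Tlr9 at -0.21, and Tlr3, the receptor for double-stranded RNA, followed Zbp1 at 0.22.

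Of the partners of IRF proteins, 13 of 14 were tested and none passed 0.32 in either direction. Irf2bpl (0.14) and Batf (0.079), an AP-1 factor that binds with IRF4, were the highest, and Tcf3 (-0.21) and Irf2bp1 (-0.15) the lowest. Interferon-stimulated genes, the targets of the family, were tested at 64 promoters of 67 genes listed. Their median ratio was 0.013, with 5 promoters past 0.32 upwards (7.81%, against 8.37% of all) and 0 downwards (2.59% of all). The highest were Gbp6, a GTPase of cell defence (8.30 and 12.5 FPM, a ratio of 0.59), and Casp1, the inflammasome protease (10.5 and 15 FPM, a ratio of 0.52), and the lowest Cxcl9 (4.53 and 3.63 FPM, a ratio of -0.31) and Cxcl10 (14.2 and 12.1 FPM, a ratio of -0.23), both chemokines. Intervals lay wholly above 0 at 10 of the 64 promoters (12.3% of all promoters) and wholly below 0 at 5 (24.2% of all). Under scaling to all nuclear fragments the median of this list was -0.021, beside -0.087 over all promoters. As scaled above, 0.013 stood beside -0.054 over all promoters. The gene bodies of this list had a median of 0.076, beside 0.0094 over all gene bodies.

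The genes most like each member were taken over 4 values, the promoter level and the gene body level per kb in each library, by Euclidean distance on the log2 scale among 14698 genes. For 7 members the nearest were Pdzd7 to Irf5 (0.033), Cnn3 to Irf4 (0.038), Pprc1 to Irf1 (0.048), Nr4a3 to Irf3 (0.054), 1700029H14Rik to Irf8 (0.057), Slc4a2 to Irf2 (0.087) and Znhit1 to Irf7 (0.18). Next came Ptch1, Gm28044, Fzd4, Nampt, Nos3, Srsf1 and Kcna3 in the same order, at 0.073 to 0.21. Of these 7, Irf7 stood farthest from its nearest gene.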

How the data were processed

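Per the study's methods, Cell Ranger ATAC had aligned the reads and counted barcodes, and the submitters' processing notes name mm10 and Signac. The deposited files hold counts: the authors' unique fragments with their barcodes, and a table of fragment counts per barcode with the cell calls. The methods name a newer Cell Ranger ATAC release than the layout of the barcode table belongs to, so the release is uncertain. Peaks called by the authors were left out.

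Barcodes called as cells with over 3000 and under 20000 fragments in the authors' peaks were kept, and no doublets were called. Fragments were counted once per region when an end lay in it, and summed per library. Genes were those of GENCODE M21, whose build GRCm38 is that of mm10. Peaks were called in each library and merged, with windows of 151 bp in steps of 10 bp, a local background of 10000 bp, q of 0.001, joins over 50 bp and a minimum width of 100 bp, giving 167389. Levels were scaled to fragments in these peaks, and ratios used a pseudocount of 1 fragment. Intervals were exact Poisson for levels and exact binomial (Clopper-Pearson) for ratios and shares. They cover counting error only, with 1 library per age and no test between ages. Ratios were read for regions with at least 100 fragments, and for bins with at least 40.

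The members and gene lists were chosen with earlier results of these data known. The genes named were the 8 members, the 2 highest and 2 lowest promoter ratios of each list, all peaks and bins past the stated fold, up to 3 per direction and locus, and the 2 genes nearest each member, and some results under this rule are not reported here. Other cell filters, scalings, fragment classes, windows and minimum counts were tried as alternatives. The counting and interval steps were tested on simulated data. Python 3.11.15, numpy 2.4.6, pandas 2.3.3, scipy 1.17.1, numba 0.67.0, pysam 0.24.0 and matplotlib 3.10.9 were used.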

Additional observations from a re-analysis of the deposited data

Results flagged for a closer look

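Barcodes that had not been called as cells also held fragments at the 8 Irf promoters, 436 among young and 422 among aged barcodes, where a count of 0 would allow up to 3. Scaled to the fragments in peaks of those same barcodes, these were 280.0 and 271.8 FPM, a ratio of -0.043 (-0.24 to 0.15). In the cells, the 8 promoters together had 264.2 and 252 FPM, a ratio of -0.068. The share of these barcodes that were nuclei below the calling limit was not tested.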

How the results depend on the processing

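No paired analysis was possible because there was 1 library per age, and for the same reason no library could be left out. Over 312 recomputed values, 302 stayed within their interval or within 1.5 times the count, and 10 moved. Of the 312, 234 were of single genes or peaks, the peaks chosen for being past 1.5-fold. The settings largely reuse the same fragments, and the study's own cell limits kept 3403 of the 3404 aged cells. Agreement between settings is therefore not independent support. The interval covered counting error for single regions and for the summed Irf8 enhancers. For a median it was an interval of the median across genes. For the 8 members this ran from the lowest to the highest ratio, -0.15 to 0.19 at promoters and -0.26 to -0.0075 at gene bodies. It was so wide that it could hardly show a move of these medians. No ratio whose interval excluded 0 changed sign, while 19 alternatives changed the sign of 8 ratios and medians that lay near 0, among them the Irf8 enhancer sum (0.014 when scaled to fragments in promoters). The number of flank bins past 2-fold, 23 as reported (13 higher), was 46 (20 higher) with cut sites, 63 (30 higher) with at least 20 fragments, 7 (4 higher) with at least 100 fragments and 11 (5 higher) in bins of 1000 bp. The number of peaks past 1.5-fold, 10 as reported (3 higher), was 28 (14 higher) with cut sites, 30 (12 higher) with at least 50 fragments and 5 (2 higher) with at least 200 fragments. It was 11 (5 higher) with equal weight per cell. The minimum count sets which regions are counted, and bins of 1000 bp are other, wider regions. With cut sites the same minimum was set on ends, where a fragment can count with both. The cause of these changes was not tested. The summed Irf8 enhancer ratio was -0.20 with short fragments alone, and the cause was not tested. The pathway median was -0.0029 when scaled to fragments in promoters, where the median of all promoters was -0.0037. That scaling shifts every ratio by the same amount. The median of the 8 promoters ranged from -0.12 to -0.032 and that of the 8 gene bodies from -0.12 to -0.034. The median of the interferon-stimulated genes ranged from -0.021 to 0.063, and was below 0 with all nuclear fragments, TMM scaling or short fragments. The medians of all promoters in these settings were -0.087, -0.072 and -0.045. The Irf8 gene body ranged from -0.37 to -0.19, the Irf8 element at -91.5 kb from 1.10 to 1.24, the Irf4 elements at -51.2 and 64.3 kb from -1.15 to -0.90 and from 0.67 to 0.89. The Irf2 gene body moved once, within -0.15 to -0.069.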

Other observations

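Dusp22, the gene next to Irf4, had 4 peaks with at least 100 fragments within 100 kb of Irf4, and all 4 had intervals wholly below 0, as 14.9% of all peaks did. They were picked after their values were seen. The Dusp22 promoter, at -89.1 kb, held 1370 fragments in young and 836 in aged HSCs, or 39.5 and 31.9 FPM, a ratio of -0.31 (-0.43 to -0.18). An intron peak at -52.9 kb held 371 and 216 fragments, a ratio of -0.37 (-0.62 to -0.13), and the peaks at -75.1 and -51.2 kb are given above. No tested peak between Dusp22 and the Irf4 promoter had an interval that excluded 0.

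The Irf3 locus, rich in genes, had the lowest median over its peaks, -0.18 over 30 peaks, with 13 intervals wholly below 0 (14.9% of all peaks) and 1 wholly above (18.7% of all peaks). The Irf3 promoter itself had a ratio of -0.0067.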
